A study of Mus musculus with 15 samples.

Results

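Kidney transcripts of mice with adenine-induced chronic kidney disease (the M group) were compared with those of mice on normal diet (the C group), gene by gene and by kidney function, for the nuclear protein-coding genes that were detected in every one of the 10 kidneys. A gene was kept when it was annotated as protein-coding outside the mitochondrial genome on GRCm38 and had an FPKM above 0 in all 5 M and all 5 C libraries, which left 7279 of the 54532 genes in the table. FPKM counts the sequenced reads on a gene per length of the gene and per scaled library. Both groups were male C57BL/6 mice, 8 weeks old at the start, and both received a daily gavage of the vehicle. The M mice ate chow with 0.25% adenine for 4 weeks and standard chow in the remaining weeks of the 8-week study, and the C mice ate chow without adenine. Each library was labelled only as kidney, without the zone that was taken, and poly-A RNA of 5 mice per group was sequenced.

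Adenine given in excess is oxidised to a poorly soluble product that crystallises in the tubules, and the model is used for its tubular loss, leukocyte entry and interstitial fibrosis. The proximal tubule reclaims phosphate, amino acids, glucose and organic ions, and it depends on mitochondrial fatty acid oxidation. The distal segments set salt, water and acid balance. Mononuclear phagocytes and matrix-producing fibroblasts lie between the tubules. In whole tissue, fewer cells of a type and less RNA per cell cannot be told apart, and this holds for each result here.

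The libraries differed in depth. Reads recovered from the steps between FPKM values, with a factor of 2 undetermined, came to between 6951360 and 13576600 nuclear reads in the C libraries. They came to between 2077630 and 2770070 in M mice 1 to 3, and to 6488500 and 7142900 in M mice 4 and 5. Mitochondrial genes held 53.0% to 62.5% of the C reads and 64.0% to 86.8% of the M reads. M mice 1 to 3 had 10068 to 12222 genes above 0, against 23040 and 25460 in M mice 4 and 5 and 19864 to 25251 in the C group. No label names a batch that parts these mice, and the part of depth in the results was not tested. Results for M mice 4 and 5 by themselves are therefore given for many genes and lists, though not for all. The filter has a cost: 1866 protein-coding genes above 0 in all C mice were at 0 in M mice 1, 2 and 3, and no fall of theirs is counted here. The shared replicate numbers of the labels were not used to pair mice.

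Of the 7279 genes, 107 were differentially expressed (1.47%), with 41 higher (0.563%) and 66 lower (0.907%) in the M group. A call needed 0.05 or less for the adjusted p together with 1 or more for the size of the log2 fold change, from limma on log2(FPKM + 1) with Benjamini-Hochberg adjustment over all 21153 genes tested. Among all genes tested the shares were 0.269% higher and 1.11% lower. On this scale the fold change of low genes is understated. All M values lay above all C values for 182 of the 7279 genes (2.50%) and below them for 219 (3.01%), 401 in all (5.51%), and the shares among all genes tested were 1.05%, 3.67% and 4.72%. At an unadjusted p under 0.05 there were 562 higher (7.72%) and 738 lower (10.1%), against 3.7% and 12.8% of all genes tested. Calls in either direction made up 1.38% of all genes tested. The median log2 fold change of the 7279 genes was −0.02, and that of all genes tested was −0.12.

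Of the 107 called genes, 103 had M values that were all on one side of the C values. In M mice 4 and 5 alone, 39 of the 41 and 65 of the 66 differed from the C mean by at least 1 on the log2 scale, and these mice were part of the fit that called the genes. The fold change was larger in M mice 1 to 3 than in M mice 4 and 5 for 31 of the 41 rises and 57 of the 66 falls. The calls rested on small margins. Without C mouse 5, 0 of the 7279 genes were called by limma, with 382 higher and 488 lower at an unadjusted p under 0.05. Leaving out C mouse 2 left 7 higher and 16 lower, and without M mouse 3 there were 2 and 3. Without M mouse 2 the numbers were 4 and 9, and without M mouse 5 they were 103 and 181. The other left-out fits gave 21 and 56 without C mouse 1, 15 and 53 without C mouse 3, 28 and 19 without C mouse 4, 18 and 20 without M mouse 1, and 42 and 68 without M mouse 4. Of the 107 genes, 39 passed in at least 5 of the 10 fits that left out 1 library. Kap, Klk1, Miox, Socs3 and Gpnmb, counted after the values were seen, passed in 9 of 10, which was the most for any gene.

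**Figure D1:**
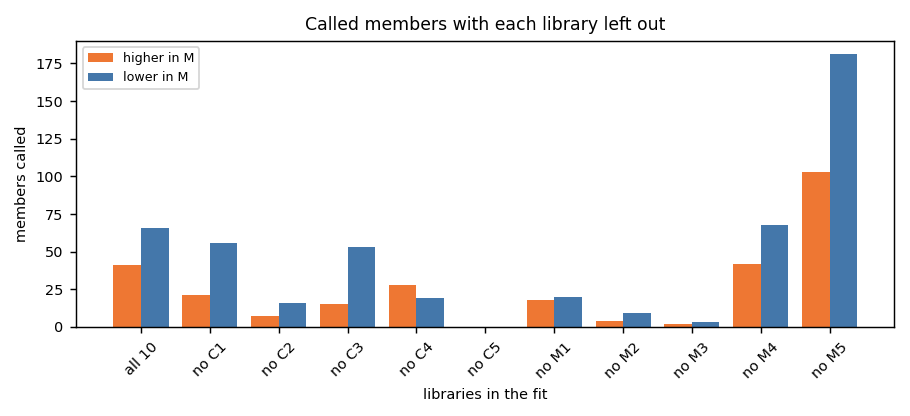
Number of genes called higher (orange) and lower (blue) in the M group with all 10 libraries and with each library left out in turn, as bars from 0. The counts were 41 and 66 with all libraries, 0 and 0 without C mouse 5, and 103 and 181 without M mouse 5.

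The C mice also differed among themselves. C mouse 4 held the highest C value for 32 of the 41 rises, and C mouse 2 held the highest C value for 61 of the 66 falls. Over all 7279 genes they held the highest C value for 1377 and 2588. Summed markers of the cell types that kidney tissue can hold showed the same mice standing apart. Macrophage markers (Lyz2, Csf1r, C1qa, Cd68 and Adgre1) summed to 14.7 to 26.2 FPKM in C mice 1, 2, 3 and 5, to 76.4 in C mouse 4 and to 106 to 355 in the M group. Lyz2 made up most of the sum in every M mouse and in C mouse 4, and Csf1r was lower in M mice 1 to 3 than in every C mouse. Adipocyte markers summed to 83.7 FPKM in C mouse 4, against at most 12.1 in the other C mice and 0.597 after adenine. B cell markers summed to 12.6 FPKM in C mouse 4 and to at most 1.29 in any of the other libraries. The 7 proximal tubule markers summed to 1787 FPKM in C mouse 2, to 238 to 835 in the other C mice and to 6.00 to 102 after adenine. Aqp2 and the other 2 principal cell markers summed to 319 and 474 FPKM in C mice 1 and 3, against 26.8 to 41.2 in C mice 2, 4 and 5 and 1.76 to 10.7 after adenine. C mice 1 and 3 thus had the lowest proximal tubule and the highest principal cell sums of the C group. Their part in the results was not tested.

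**Figure D2:**
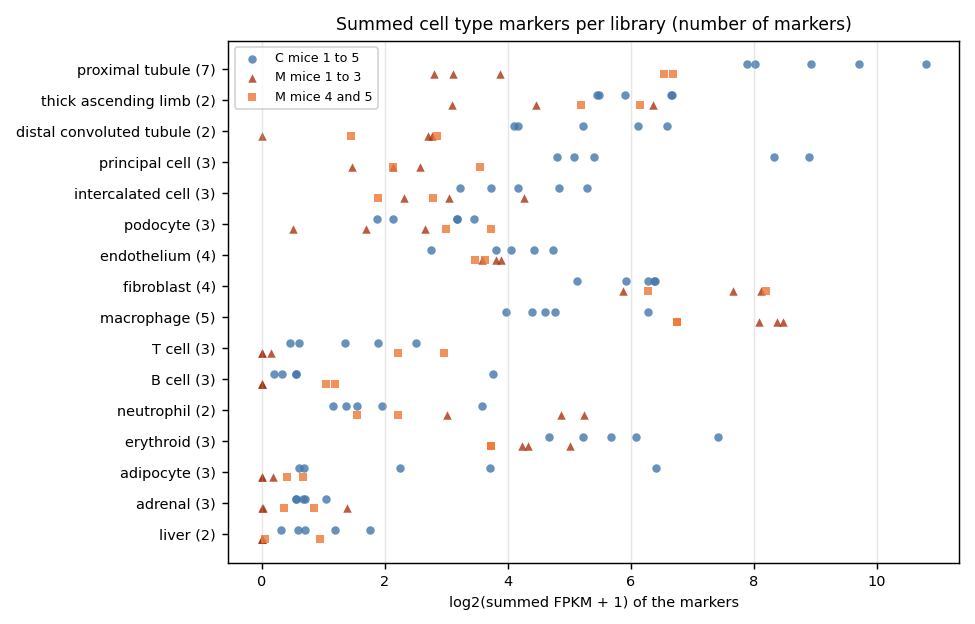
Summed marker levels per library, as log2(summed FPKM + 1), for 16 cell types, with the number of markers in brackets. Circles are C mice, triangles M mice 1 to 3 and squares M mice 4 and 5. The 5 M mice lie below all C mice for proximal tubule, distal convoluted tubule and principal cell markers and above them for macrophage markers.

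The other marker sums overlapped between groups, except those of the distal convoluted tubule. Those 2 markers summed to 16.2 to 95.0 FPKM with normal diet and to 0 to 6.18 after adenine. Most of the C sum was Slc12a3, while Pvalb was at 0.246 to 4.31 FPKM in the C mice and at 5.52 and 5.80 in M mice 2 and 3. Fibroblast markers summed to 33.9 to 82.7 FPKM with normal diet and to 57.5 to 293 after adenine. Neutrophil markers summed to 1.22 to 10.9 FPKM in the C mice, to 7.03 to 37.0 in M mice 1 to 3 and to 1.93 and 3.63 in M mice 4 and 5. Erythroid markers summed to 24.4 to 171 and 12.2 to 31.2 FPKM in the C and M groups, podocyte markers to 2.68 to 9.96 and 0.425 to 12.2, and endothelial markers to 5.75 to 25.7 and 10.1 to 13.8. The thick ascending limb markers summed to 43.0 to 101 FPKM with normal diet and 7.499 to 81.2 in the M group, and the intercalated cell markers to 8.35 to 38.0 and 2.72 to 18.2. T cell markers summed to at most 6.84 FPKM, adrenal markers to at most 1.61 and liver markers to at most 2.40 in any library. Every marker of every cell type was above 0 in at least 1 library, so detection by itself does not mark the tissue as kidney. The proximal tubule sums were 238 to 1787 FPKM with normal diet and 6.00 to 102 after adenine. They lay above the liver and adrenal sums in each library.

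Values of single mice are given from mouse 1 to mouse 5, for the C mice (normal diet) first and then for the M mice (after adenine). The largest fall was in Slc34a1, which encodes the sodium-phosphate cotransporter of the proximal tubule brush border (chromosome 13, 55398187 to 55415592, GRCm38). Its FPKM was 71.0, 905, 106, 140 and 339 for C mice 1 to 5 and 1.97, 0.184, 0.378, 10.9 and 16.9 for M mice 1 to 5. The highest M value lay well below the lowest C value. The log2 fold change was −5.65 (standard error 0.85, n = 5 per group, limma adjusted p = 0.0155), and with only M mice 4 and 5 it was −3.79. Among the 7 detected genes of sodium-coupled and other proximal solute transport, 3 fell and 0 rose, and the list median was −1.14, with −0.50 in M mice 4 and 5 and −1.83 in M mice 1 to 3. The other falls were Slc6a18 and Slc7a13, both amino acid transporters. Slc6a18 had 38.1, 132, 38.8, 39.8 and 104 FPKM with normal diet and 1.70, 1.69, 1.5, 17.2 and 12.6 after adenine, or a log2 fold change of −3.52 (SE 0.63, limma adjusted p = 0.0227) that was −1.97 in M mice 4 and 5. Of the 35 genes on that list, 8 were left out because they were at 0 in M mice 1 to 3.

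Organic anion and cation transporters, which secrete or reclaim drugs and urate, gave 3 falls and 0 rises among 9 genes, with a median of −1.12. Slc22a2, the basolateral organic cation transporter, had M values close together, at 1.94, 1.00, 2.02, 1.497 and 1.73 FPKM, against 7.22, 28.4, 6.00, 14.2 and 21.6 in the C mice. Its fold change was −2.45 with either subset of M mice (SE 0.40, limma adjusted p = 0.0182). Slc17a3 and Slc17a1, phosphate and organic anion transporters that lie in one gene family, fell by 3.14 and 2.18 on the log2 scale. Slc22a12, the urate exchanger, had the lowest fold change on the list, −3.44, and its adjusted p of 0.0511 by limma kept it from being called. It is named here after its values were seen.

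Brush border peptidases and hydrolases gave 2 falls and 0 rises among 6 genes, at a median of −1.28. Ggt1, the gamma-glutamyltransferase that cleaves glutathione in the tubular lumen, had 73.0, 237, 58.6, 153 and 189 FPKM with normal diet and 8.13, 0.617, 3.78, 34.1 and 37.8 after adenine. M mice 4 and 5 lay closest to the C group, and the log2 fold change of −3.66 was −1.76 with them alone. Acy3, an aminoacylase, fell by 2.96 on that scale. Protein endocytosis genes had 0 calls among 10 detected genes and a median of −0.20, where 1.47% of all 7279 genes were called. At an unadjusted limma p under 0.05, 3 of the 10 were lower and 0 higher. The log2 fold change of Cubn, the cubilin gene, was −1.27. Lrp2, the megalin gene, was left out because M mouse 2 was at 0. It ran from 3.61 to 23.6 FPKM with normal diet and from 0 to 2.19 after adenine. Cubn and Lrp2 are named here after their values were seen. Fcgrt, the Fc and albumin receptor, was at 19.4 ± 7.99 FPKM with normal diet and 22.5 ± 10.7 after adenine, and Ap2s1, an adaptor subunit, at 16.5 ± 3.59 and 13.8 ± 2.77 (SD, n = 5 each).

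Kap and Miox, proximal tubule genes of high level, fell by similar amounts in both subsets of M mice. Kap encodes the kidney androgen-regulated protein (chromosome 6, 133849851 to 133853762), and its FPKM was 2779, 10538, 2962, 6698 and 5135 with normal diet and 500, 81.2, 288, 314 and 152 after adenine. It had the smallest adjusted p of all 107 called genes, with a log2 fold change of −4.46 (SE 0.54, limma adjusted p = 0.00852) and −4.49 in M mice 4 and 5 alone. Miox, the myo-inositol oxygenase that opens inositol breakdown (chromosome 15, 89334398 to 89337015), had 148, 901, 168, 196 and 373 FPKM with normal diet and 32.5, 3.83, 17.5, 21.8 and 12.8 after adenine. Both genes were separated between groups in every library. The remaining large falls were Slc27a2, a very-long-chain acyl-CoA synthetase and fatty acid transporter, at −4.37 (−1.89 in M mice 4 and 5), Napsa, an aspartic protease, at −4.03 (−2.55 in M mice 4 and 5), Ces1f, a carboxylesterase, at −3.45, and Nat8f1, an N-acetyltransferase, at −3.15. Slc27a2 was the least even of these, at 1.29 to 4.77 FPKM in M mice 1 to 3 and 72.5 and 71.1 in M mice 4 and 5, with a C range of 120 to 707. Ces1f and Nat8f1 belong to families of near-identical copies among which reads may be split, so their values are uncertain, and 2 and 1 recovered reads stood behind their lowest values.

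**Figure D3:**
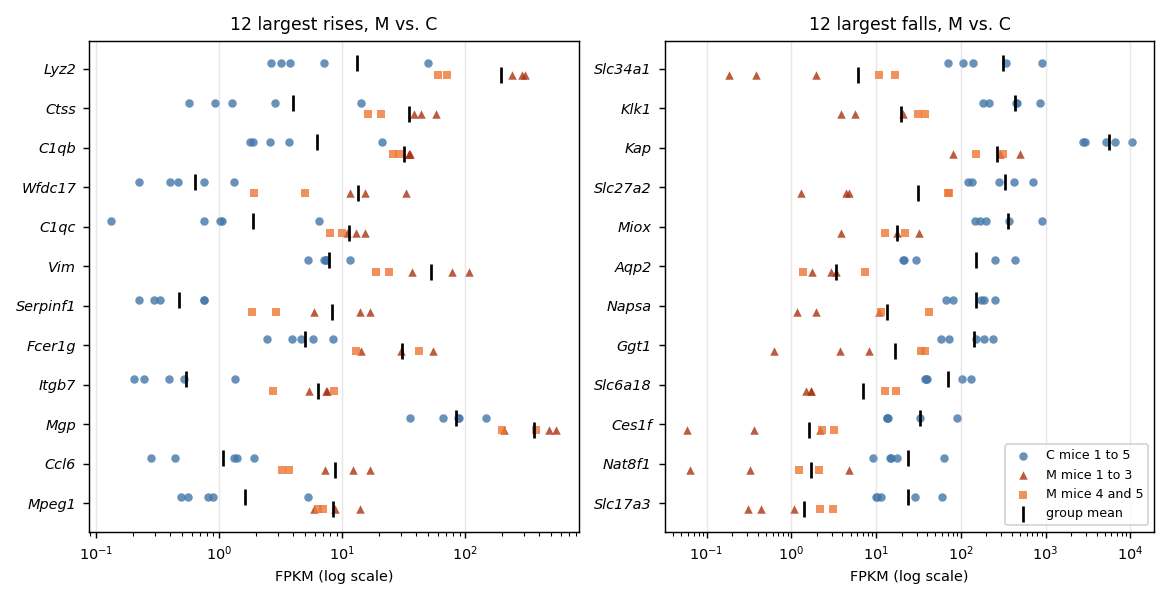
FPKM per library on a log axis of the 12 largest rises (left) and the 12 largest falls (right) that passed and had separate groups. Circles are C mice, triangles M mice 1 to 3, squares M mice 4 and 5, and black bars group means (n = 5). Slc34a1 ran from 71.0 to 905 with normal diet and from 0.184 to 16.9 after adenine, and Lyz2 from 2.63 to 49.6 and from 60.5 to 307.

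The 13 lists of metabolism held 21 falls and 0 rises. Fatty acid oxidation gave 3 falls and 0 rises among 33 genes, and 32 of the 33 fold changes were negative, at a median of −0.88 (−0.92 in M mice 4 and 5 and −0.69 in M mice 1 to 3). The falls were Acaa1b, a peroxisomal thiolase, Acsm2, a medium-chain acyl-CoA synthetase, and Etfb, a subunit of the electron transfer flavoprotein. Acaa1b had 15.3, 147, 22.3, 29.8 and 104 FPKM with normal diet and 10.6, 7.90, 3.53, 6.71 and 5.93 after adenine, with a log2 fold change of −2.57 (SE 0.57, limma adjusted p = 0.0462). C mice 2 and 5 carried most of its C level. The nuclear subunits of oxidative phosphorylation gave 4 falls and 0 rises among 71 genes, with 64 negative fold changes and a median of −0.74. Uqcrq of complex III and Ndufa1, Ndufa13 and Ndufa5 of complex I fell by 2.04, 1.75, 1.61 and 1.36 on the log2 scale, and Ndufa13 by 1.05 with M mice 4 and 5 alone. The FPKM of Uqcrq was 36.4, 62.8, 27.9, 58.1 and 45.7 with normal diet and 12.8, 5.54, 6.43, 17.8 and 12 after adenine, and these ranges did not touch. All M values lay below all C values for 16 of these 71 subunits, against 3.01% of all 7279 genes. The subunits together held 3.61% ± 0.318 of the summed FPKM of the 7279 genes in the C group and 2.59% ± 0.585 after adenine (mean ± SD, n = 5 each).

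The citrate cycle list had 1 fall among 19 genes and a median of −0.50. That gene was Pcx, pyruvate carboxylase, at 13.3 ± 8.01 FPKM with normal diet and 1.51 ± 0.819 after adenine (mean ± SD, n = 5 each), a log2 fold change of −2.40 (SE 0.38, limma adjusted p = 0.0182) that was −2.49 with M mice 4 and 5 alone. Gluconeogenesis and fructose use had 1 fall among 8 genes and a median of −1.46, and this was Khk, the ketohexokinase of fructose breakdown, at 65.4 ± 37.8 and 10.4 ± 5.52 FPKM. Glycolysis had 0 calls among 17 genes and a median of −0.05, with 8 positive and 9 negative fold changes. That median joins −0.39 in M mice 4 and 5 and 0.18 in M mice 1 to 3. Its genes of highest level were Ldhb, a lactate dehydrogenase subunit, at 86.0 ± 26.8 and 61.7 ± 18.9 FPKM, and Aldoa, an aldolase, at 92.2 ± 9.78 and 45.7 ± 13.4, whose groups did not overlap (log2 fold change −1.04, limma adjusted p = 0.1003). No difference between lists was tested.

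Breakdown of amino acids and inositol gave the most falls of any list, 8 of 25 genes, and all 25 fold changes were negative (median −0.90, −1.09 in M mice 4 and 5). Besides Miox they included Hgd and Fah of tyrosine breakdown, Ass1 and Asl, which make arginine from citrulline, Ivd of leucine breakdown and Upb1 of pyrimidine breakdown. Ass1 had 31.3, 147, 31.8, 78.3 and 63.4 FPKM with normal diet and 8.57, 5.63, 6.59, 12.5 and 6.66 after adenine, or a log2 fold change of −2.79 (SE 0.42, limma adjusted p = 0.0158). The M values of Ass1 were close together while its C values spanned 31.3 to 147. Hgd and Fah fell by 3.04 and 2.81 on the log2 scale, and by 2.18 and 1.62 in M mice 4 and 5.

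Detoxifying and redox enzymes were mixed. The glutathione, glucuronide and sulfate transferases gave 2 falls and 0 rises among 14 genes (median −0.64), Gstt2 (log2 fold change −2.42, and −1.59 in M mice 4 and 5) at 18.9 ± 11.1 FPKM with normal diet and 2.73 ± 2.02 after adenine and Gstk1 at 7.53 ± 2.37 and 2.18 ± 1.12 (SD, n = 5 each). Of the 67 transferase genes listed, 33 were left out at 0 in M mice 1 to 3. The cytochrome P450 families are poorly covered, since 55 of their 80 genes were at 0 in M mice 1 to 3, and the 6 detected genes had 0 calls. Cyp2e1, an ethanol-inducible oxidase, was at 8.66, 59.6, 10.1, 31.8 and 29.5 FPKM with normal diet and 7.59, 8.34, 2.73, 1.86 and 1.80 after adenine. Its groups did not overlap, and its adjusted p by limma was 0.0612. Cyp1b1 was at 12.02 ± 5.35 and 14.7 ± 9.44 FPKM. The antioxidant list had 1 fall among 26 genes and a median of −0.03, which was −0.49 in M mice 4 and 5 and 0.20 in M mice 1 to 3. That fall was Gpx3, the glutathione peroxidase that the proximal tubule secretes into plasma, at 1221, 5127, 1471, 5940 and 3496 FPKM with normal diet and 423, 172, 264, 433 and 711 after adenine (log2 fold change −2.99, SE 0.54, limma adjusted p = 0.0229). The highest M value of Gpx3 stayed below the lowest C value.

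Retinoid binding, storage and synthesis had 0 calls among 14 detected genes, at a median of −0.15 that was 0.03 in M mice 4 and 5 and 0.01 in M mice 1 to 3. The list held 36 genes, of which 8 were left out at 0 in M mice 1 to 3, so the median does not cover them. Adh1, an alcohol dehydrogenase of retinol, was at 23.1 ± 6.07 FPKM with normal diet and 18.7 ± 14.2 after adenine, and Dhrs3, a retinal reductase, at 16.4 ± 5.85 and 9.05 ± 7.56 (SD, n = 5 each). The Dhrs3 log2 fold change of −1.05 was 0.11 in M mice 4 and 5. Aldh1a1, a retinal dehydrogenase, had 0.991, 0.398, 0.836, 0.976 and 0.412 FPKM with normal diet and 1.61, 1.01, 1.06, 0.864 and 0.773 after adenine, and the groups overlapped. Rara, a retinoic acid receptor, and Cyp2a5, an oxidase, were not among the 7279 genes because they were at 0 in M mouse 2 and in M mice 2 and 3. Cyp2a5 passed the test all the same, at a log2 fold change of −2.15 (limma adjusted p = 0.0296). Cholesterol synthesis and uptake had 0 calls among 16 genes (median −0.14). Hmgcs1, the HMG-CoA synthase, was at 17.5 ± 10.1 and 5.78 ± 1.46 FPKM without overlap, with a limma adjusted p of 0.0788, and Insig2, a sterol sensor, at 2.14 ± 0.626 and 3.85 ± 1.87.

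Genes of iron storage and of purines, the class to which adenine belongs, gave 1 call. With 1.47% of all 7279 genes called, few calls in short lists cannot mark these genes as unchanged. Iron and metal storage had 0 calls among 11 genes (median 0.39), with the ferritin chain Fth1 at 724 ± 232 FPKM with normal diet and 1042 ± 417 after adenine and Ftl1 at 91.1 ± 33.6 and 124 ± 34.8 (SD, n = 5 each). Purine salvage and breakdown gave 1 fall among 15 genes (median 0.21), Entpd5, a nucleoside diphosphatase, at 11.3 ± 4.79 and 2.64 ± 1.22 FPKM. Aprt, which salvages adenine, had 9.12, 20.9, 10.001, 8.95 and 13.3 FPKM with normal diet and 5.60, 3.38, 9.76, 7.20 and 8.65 after adenine. Xdh, the oxidase that acts on adenine and xanthine, was at 1.37 ± 0.508 and 1.73 ± 0.892 FPKM. Both genes overlapped between groups and neither was called.

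**Figure D4:**
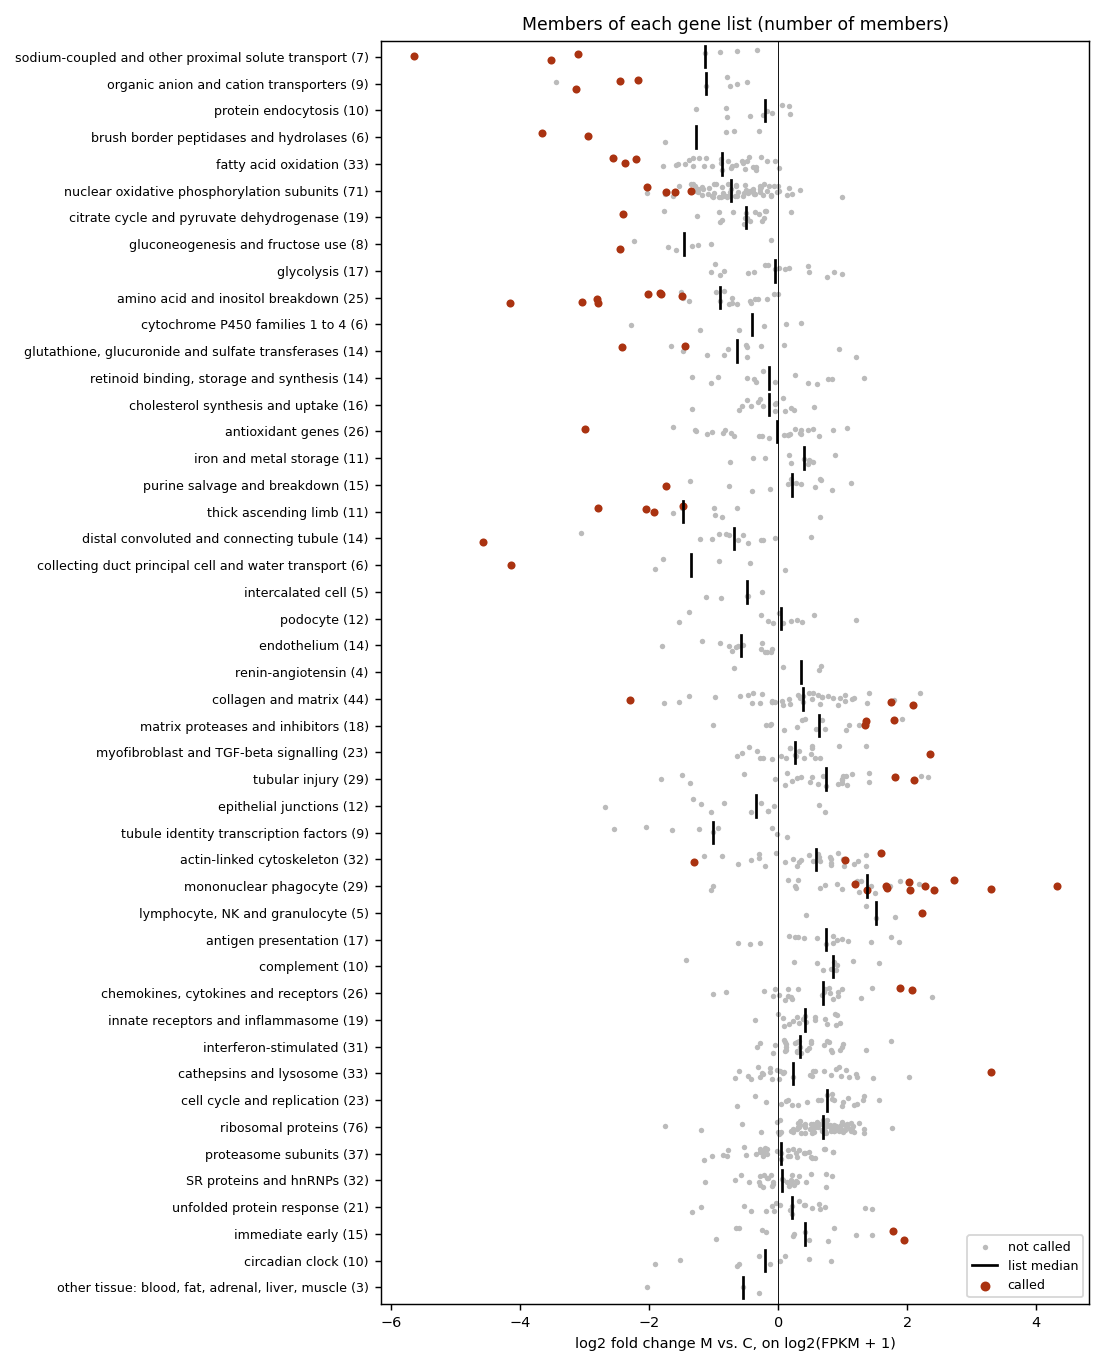
log2 fold change of M vs. C for the genes of each of 47 lists, with the number of genes in brackets. Red points were called, grey points were not, and black bars are list medians. Called genes of the tubule and metabolism lists lie left of 0, as far as −5.65, and those of the mononuclear phagocyte list lie right of 0, up to 4.32.

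In the 4 lists of the distal nephron, 6 genes fell and 0 rose. The thick ascending limb, which dilutes the urine, gave 4 falls and 0 rises among 11 genes at a median of −1.48 (−1.12 in M mice 4 and 5). Egf, a growth factor gene on this list, had 10.1, 36.5, 8.48, 14.1 and 31.7 FPKM with normal diet and 3.81, 0.798, 0.131, 5.35 and 0.980 after adenine, or a log2 fold change of −2.79 (SE 0.54, limma adjusted p = 0.0284). Fxyd2, a regulatory subunit of the sodium pump, fell by 1.93 on the log2 scale without overlap. Bsnd, the chloride channel subunit barttin, fell by 2.05, with C mouse 4 at 2.88 FPKM inside the M range of 0.534 to 3.50 and the other C mice at 12.8 to 16.7. Umod, the uromodulin gene, had 36.4, 32.5, 15.4, 16.1 and 50.4 FPKM with normal diet and 66.7, 6.30, 16.5, 26.9 and 7.32 after adenine. Umod was highest in an M mouse and was not called.

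The distal convoluted and connecting tubule gave 1 fall among 14 genes (median −0.69). This was Klk1, tissue kallikrein of the connecting tubule (chromosome 7, 44225360 to 44229618), with 183, 852, 216, 444 and 464 FPKM with normal diet and 20.96, 5.69, 3.90, 31.6 and 37.5 after adenine. The log2 fold change was −4.58 (SE 0.62, limma adjusted p = 0.0131), and −3.39 in M mice 4 and 5. Klk1 reads may be shared with near copies in the kallikrein family. Slc12a3, the thiazide-sensitive cotransporter, was not among the 7279 genes because M mice 1 to 3 were at 0, while M mice 4 and 5 had 1.58 and 6.02 FPKM and the C mice 15.7 to 93.8. Kl, which encodes klotho, was at 1.32 to 6.48 FPKM with normal diet and 0.185 to 1.03 after adenine, without overlap and with a limma adjusted p of 0.113. The principal cell and water transport list had 1 fall among 6 genes (median −1.35), the water channel Aqp2 (chromosome 15, 99579055 to 99584547). Aqp2 had 255, 20.6, 437, 21.5 and 29.6 FPKM with normal diet and 2.92, 3.37, 1.76, 7.45 and 1.38 after adenine, so that C mice 1 and 3 stood far above the other C mice. Its log2 fold change was −4.15 (SE 0.81, limma adjusted p = 0.0293). Intercalated cell genes had 0 calls among 5 (median −0.49), with Car2, a carbonic anhydrase, at 19.5 ± 4.64 FPKM with normal diet and 14.4 ± 6.60 after adenine and the proton pump subunit Atp6v1g3 at 7.87 ± 2.76 and 6.71 ± 6.37 (SD, n = 5 each).

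Regulators and junction genes of the epithelium held no calls, where 1.47% of all 7279 genes were called. The tubule identity transcription factors had 0 calls among 9 genes and 8 negative fold changes. Their median was −1.01, with −0.44 in M mice 4 and 5 and −1.39 in M mice 1 to 3. At an unadjusted limma p under 0.05, 6 of the 9 were lower and 0 higher, against 10.1% and 7.72% of all 7279 genes. All M values lay below all C values for 2 of the 9, against 3.01% of all 7279 genes. One of them was Esrra, an orphan receptor of mitochondrial genes, at 25.6 ± 15.5 FPKM with normal diet and 7.35 ± 4.29 after adenine (mean ± SD, limma adjusted p = 0.0993, n = 5 per group). Epithelial junctions had 0 calls among 12 genes (median −0.34), with 3 lower and 0 higher at an unadjusted limma p under 0.05. The kidney cadherin Cdh16 was at 60.7 ± 21.1 and 14.5 ± 15.4 FPKM and Ctnna1, alpha catenin, at 21.2 ± 10.3 and 17.6 ± 3.39. The Cdh16 log2 fold change of −2.68 was −0.87 in M mice 4 and 5.

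Glomerular and vascular lists had no calls. Podocyte genes had a median of 0.04 over 12 genes, with Tcf21, a mesenchymal transcription factor, at 6.55 ± 2.88 FPKM with normal diet and 18.0 ± 11.8 after adenine and the basement membrane chain Col4a4 at 7.001 ± 2.89 and 2.01 ± 1.69 (SD, n = 5 each). Nphs1, the nephrin gene, was left out because M mice 1 and 3 were at 0. All 14 endothelial genes had negative fold changes, at a median of −0.58 that was −0.21 in M mice 4 and 5 and −0.80 in M mice 1 to 3, and 3 had an unadjusted p under 0.05. Igfbp3, a growth factor binding protein, was at 118 ± 65.7 and 38.3 ± 29.9 FPKM, and Eng, endoglin, at 34.8 ± 9.30 and 24.02 ± 15.4. The 4 renin-angiotensin genes had a median of 0.35, with Atp6ap2 at 6.35 ± 2.31 and 11.4 ± 5.98 FPKM and the angiotensin receptor Agtr1a at 7.02 ± 2.29 and 7.32 ± 2.21.

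Mononuclear phagocyte genes were the list with the most rises, 11 of 29 genes, with 0 falls and 27 positive fold changes. The list median was 1.38, 1.38 in M mice 4 and 5 and 1.47 in M mice 1 to 3. Lyz2, lysozyme of myeloid cells (chromosome 10, 117277331 to 117282321), had 7.12, 3.78, 2.63, 49.6 and 3.16 FPKM with normal diet and 241, 289, 307, 70.7 and 60.5 after adenine. The M values fell into a high trio and a lower pair, and C mouse 4 came close to that pair. The log2 fold change was 4.32 (SE 0.72, limma adjusted p = 0.0190), 5.00 without C mouse 4 and 3.08 with M mice 4 and 5 alone, and the near copy Lyz1 may share its reads. Ctss, the cathepsin that trims antigen chaperones, had 2.87, 0.934, 1.27, 14.3 and 0.572 FPKM with normal diet and 38.0, 43.6, 57.6, 20.5 and 16.1 after adenine.

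The complement C1q chains were also high in M mice 4 and 5. C1qb (chromosome 4, 136880129 to 136886187) had 2.58, 1.78, 1.88, 21.2 and 3.68 FPKM with normal diet and 35.6, 34.7, 35.1, 25.8 and 28.9 after adenine, or a log2 fold change of 2.73 (SE 0.50, limma adjusted p = 0.0246) and 3.27 without C mouse 4. C1qc had 1.02, 0.760, 0.133, 6.46 and 1.05 FPKM with normal diet and 12.9, 11, 15.3, 7.89 and 10.04 after adenine. In both genes C mouse 4 was the only C value above 4 FPKM. The other rises on the list were the Fc receptor gamma chain Fcer1g, the pore-forming Mpeg1, Aif1, Gpnmb, the leukocyte integrin chain Itgb2, the Fc receptor Fcgr1 and Ms4a7, at log2 fold changes from 1.18 to 2.27. Not every gene of the list moved this way. Csf1r, the receptor for the growth factor of these cells, had 9.52, 15.9, 7.61, 6.92 and 11.3 FPKM with normal diet and 2.43, 2.31, 3.74, 7.89 and 8.28 after adenine, with a log2 fold change of −1.01 and a limma adjusted p of 0.205, and Cyba, an oxidase subunit, was at −1.05 (limma adjusted p = 0.211). Ptprc, the pan-leukocyte CD45 gene, was at 0.530 ± 0.523 and 0.887 ± 0.605 FPKM. These last genes are named after their values were seen.

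Other leukocyte genes rose singly. Itgb7, an integrin chain of gut-homing lymphocytes and other leukocytes, was the 1 rise among 5 detected lymphocyte, NK and granulocyte genes (median 1.52), while 14 genes of that list were at 0 in M mice 1 to 3. It had 0.202, 0.521, 0.245, 1.35 and 0.388 FPKM with normal diet and 7.53, 5.39, 7.39, 2.73 and 8.61 after adenine, or a log2 fold change of 2.22 (SE 0.33, limma adjusted p = 0.0144). T cell and B cell markers were at or near 0 in M mice 1 to 3, where their sums were at most 0.108 FPKM. The chemokines, cytokines and receptors gave 2 rises among 26 genes (median 0.69), while 41 of the 90 genes listed were at 0 in M mice 1 to 3. Ccl5, a T cell and monocyte attractant, had 0.811, 0.466, 0.674, 2.46 and 0.498 FPKM with normal diet and 5.57, 7.97, 6.75, 2.77 and 8.48 after adenine, and Ccl6, a myeloid chemokine, rose by 2.07 on the log2 scale, which was 1.18 in M mice 4 and 5. In Ccl5, C mouse 4 and M mouse 4 lay side by side. Wfdc17, a secreted protein of activated macrophages, rose from 0.633 ± 0.433 to 13.4 ± 12.2 FPKM (SD, n = 5 each; log2 fold change 2.71, limma adjusted p = 0.0324), and 1.39 of that remained with M mice 4 and 5 alone.

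The remaining immune lists had positive medians and few or no calls. Antigen presentation had 0 calls among 17 genes (median 0.75, and 1.17 in M mice 4 and 5). B2m, the light chain of class I molecules, was at 132 ± 43.2 FPKM with normal diet and 303 ± 160 after adenine, and Cd74, the class II chaperone, had 19.4, 20.0, 9.58, 153 and 20.7 FPKM with normal diet and 66.6, 68.2, 55.8, 86.5 and 95.6 after adenine. For B2m, M mice 4 and 5 had 199 and 78.3 FPKM. Its log2 fold change was 0.99 with all M mice and −0.03 with M mice 4 and 5 alone. C mouse 4 was above every M mouse in Cd74, and the Cd74 log2 fold change was 1.44 with that mouse (limma adjusted p = 0.239) and 2.07 without it (limma adjusted p = 0.0247). Complement had 0 calls among 10 genes (median 0.85), with the regulator Serping1 at 87.3 ± 22.9 and 241 ± 159 FPKM (SD, n = 5 each). Innate receptors and inflammasome genes had 0 calls among 19 (median 0.41), with Nfkbia, the NF-kappaB inhibitor, at 10.1 ± 5.02 and 12.8 ± 2.42 FPKM and Casp8, a death receptor protease, at 6.75 ± 2.53 and 7.18 ± 2.70. Interferon-stimulated genes had 0 calls among 31 (median 0.33). For 5 of them all M values lay above all C values, against 2.50% of all 7279 genes. Ifitm3, an antiviral membrane protein, was at 45.2 ± 11.7 and 92.8 ± 27.6 FPKM and Ifi27l2a at 13.03 ± 8.72 and 45.7 ± 26.2. Cathepsins and lysosome genes had 1 rise among 33, Ctss, and a median of 0.23.

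The promoters of called genes were searched for 3 short motifs, each that of a factor of tubule or myeloid cells. The motifs were the half-site of HNF1, a factor of tubule cells (GTTAAT), a site of HNF4, a factor of the proximal tubule (CAAAGTCCA), and the core of PU.1, a myeloid factor (GAGGAAGT), on both strands of RefSeq promoters from 250 bases before to 50 after each start (GRCm38.p6). Promoters were found for 51 of the 66 lower and 32 of the 41 higher genes. The HNF1 letters stood in at least 1 promoter of 11.8% of the lower (6 genes) and 3.12% of the higher genes (1 gene), against 5.03% of the 5808 of all 7279 genes with a promoter and 8.24% of 27025 genes in all. The PU.1 letters stood in 15.6% of the higher genes (5 genes) and 1.96% of the lower (1 gene), against 3.60% and 3.69%. The HNF4 letters stood in 1 higher gene and 0 lower genes, with 0.448% of the 7279 and 0.555% of all genes. These shares are a description without a test. Ctss and Itgb7 have PU.1 letters at the start itself and are not shown, Mmp12 also holds HNF1 letters 55 bases before its start, and Gpnmb is the higher gene with HNF4 letters. Examples of stretches around matches that lie before the start follow, with 30 bases on each side, 5′ to 3′ on the strand of the gene. The match described is in capitals, as the motif or its reverse complement. The Slc34a1 stretch also holds another HNF1 match, left in lower case, 89 bases before the start. The first 3 hold HNF1 letters and the last 2 PU.1 letters.
Slc34a1 (chr13:55399557-55399622, + strand, match 61 bases before the start): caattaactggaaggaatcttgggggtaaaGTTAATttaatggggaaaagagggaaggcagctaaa
Miox (chr15:89334301-89334366, + strand, match 142 bases before the start): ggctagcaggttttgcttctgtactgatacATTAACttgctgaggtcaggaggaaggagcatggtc
Acsm2 (chr7:119554144-119554209, + strand, match 166 bases before the start): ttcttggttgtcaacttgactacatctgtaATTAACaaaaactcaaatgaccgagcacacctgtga
C1qc (chr4:136893072-136893139, − strand, match 195 bases before the start): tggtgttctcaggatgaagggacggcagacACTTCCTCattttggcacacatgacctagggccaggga
Mmp12 (chr9:7344279-7344346, + strand, match 88 bases before the start): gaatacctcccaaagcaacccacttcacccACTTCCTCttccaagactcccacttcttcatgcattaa

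Matrix genes changed in both directions. Collagen and matrix genes gave 2 rises and 1 fall among 44 (median 0.38, 0.62 in M mice 4 and 5 and 0.09 in M mice 1 to 3), and 17 genes of the list were at 0 in M mice 1 to 3. Col3a1, the fibrillar collagen III chain (chromosome 1, 45311538 to 45349706), had 18.6, 9.03, 7.52, 10.2 and 13.7 FPKM with normal diet and 57.8, 51.1, 75.3, 81.0 and 18.4 after adenine. M mouse 5 lay just under the highest C value, and the log2 fold change was 2.08 (SE 0.41, limma adjusted p = 0.0296). Thbs2, a matricellular thrombospondin, had 0.511, 0.927, 0.641, 1.43 and 1.02 FPKM with normal diet and 3.54, 5.11, 10.51, 4.10 and 5.27 after adenine, without overlap. Col27a1, a collagen of cartilage and other tissues, fell from 12.2 ± 8.10 to 1.79 ± 2.06 FPKM (SD, n = 5 each), a log2 change of −2.29 that was −1.32 in M mice 4 and 5. Col1a1, the collagen I chain, had 23.9, 15.4, 10.9, 19.3 and 18.4 FPKM with normal diet and 23.8, 19.9, 29.9, 126 and 33.2 after adenine. It was not called (log2 fold change 1.04, limma adjusted p = 0.275), and M mouse 4 stood far above the other M mice.

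Matrix proteases and their inhibitors gave 3 rises and 0 falls among 18 genes (median 0.63 in all M mice and in M mice 4 and 5). These were Mmp14, a membrane-bound collagenase, at 5.90 ± 3.24 FPKM with normal diet and 22.7 ± 10.51 after adenine, Mmp12, the macrophage elastase, at 0.0621 ± 0.0363 and 1.93 ± 1.28, and Serpinh1, the collagen chaperone, at 16.6 ± 4.24 and 43.9 ± 10.8 (SD, n = 5 each). The lowest Mmp12 value stood on 7 recovered reads. Serpinf1, an anti-angiogenic serpin of stromal cells, rose by 2.32 on the log2 scale, with 1.20 in M mice 4 and 5 and 3.07 in M mice 1 to 3. The myofibroblast and TGF-beta list had 1 rise among 23 genes (median 0.26), the intermediate filament Vim, at 7.44, 7.10, 5.27, 11.6 and 7.41 FPKM with normal diet and 36.8, 107, 77.5, 18.8 and 23.9 after adenine. Its log2 fold change of 2.35 was 1.38 with M mice 4 and 5 alone. Acta2, the smooth muscle actin of myofibroblasts and vessels, had 21.1, 25.4, 20.1, 52.6 and 25.2 FPKM with normal diet and 16.2, 13, 12.03, 49.6 and 33.6 after adenine. M mice 1 to 3 were below all C mice, while M mice 4 and 5 were above every C mouse except C mouse 4, so that no direction held for Acta2. Tgfb1 was at 2.20 ± 0.725 and 3.25 ± 1.02 FPKM and was not called.

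Tubular injury genes gave 2 rises and 0 falls among 29 (median 0.73, and 0.98 in M mice 4 and 5). Mgp, the matrix Gla protein that inhibits calcification, had 65.8, 88.5, 35.3, 148 and 86.9 FPKM with normal diet and 551, 207, 480, 373 and 200 after adenine, and Cd44, the hyaluronan receptor, rose from 0.484 ± 0.361 to 4.76 ± 3.204 (SD, n = 5 each). Spp1, osteopontin, had 58.0, 28.5, 311, 53.5 and 22.1 FPKM with normal diet and 230, 452, 402, 135 and 254 after adenine, where C mouse 3 reached into the M range (log2 fold change 2.21, limma adjusted p = 0.104). Lcn2, the injury marker NGAL, was at 1.90 ± 1.52 and 4.52 ± 1.72 FPKM, and Vcam1, an adhesion molecule, at 3.01 ± 1.73 and 7.31 ± 1.61, neither of them called. Havcr1, the injury marker KIM-1, was left out by the filter, since it was at 0 in 3 C mice and in M mouse 1. Its other M values were 3.31, 0.127, 2.39 and 5.41 FPKM in M mice 2 to 5. Actin-linked cytoskeleton genes gave 2 rises and 1 fall among 32 (median 0.58). Tubb5, a tubulin, rose from 8.04 ± 2.76 to 26.3 ± 9.81 FPKM and Flnc, a filamin, from 0.166 ± 0.157 to 1.39 ± 0.383, and Tln2, a talin, fell from 3.68 ± 1.37 to 0.883 ± 0.495.

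The immediate early list held a rise of like size in all M mice. Socs3, a feedback inhibitor of cytokine signalling (chromosome 11, 117966079 to 117970047), had 0.819, 0.310, 0.437, 0.920 and 0.341 FPKM with normal diet and 4.14, 4.24, 5.71, 4.62 and 6.24 after adenine. The log2 fold change was 1.94 (SE 0.25, limma adjusted p = 0.0131), 2.05 with M mice 4 and 5 and 1.87 with M mice 1 to 3. Jun, a subunit of the AP-1 factor, had 1.89, 1.78, 1.21, 2.74 and 1.26 FPKM with normal diet and 6.43, 13.1, 7.32, 6.59 and 9.70 after adenine. Both were the only calls among 15 genes of the list (median 0.41). With M mice 4 and 5 as the only M mice, 3 of the 7279 genes were called, all higher, and Socs3 was 1 of them. The other two, named after their values were seen, were Ankrd1, a stress-induced nuclear cofactor, at 11.8 and 11.7 FPKM in those mice against 0.761 to 2.59 in the C mice, and Slc7a2, a cationic amino acid transporter, at 2.15 and 1.90 against 0.0851 to 0.298.

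**Figure D5:**
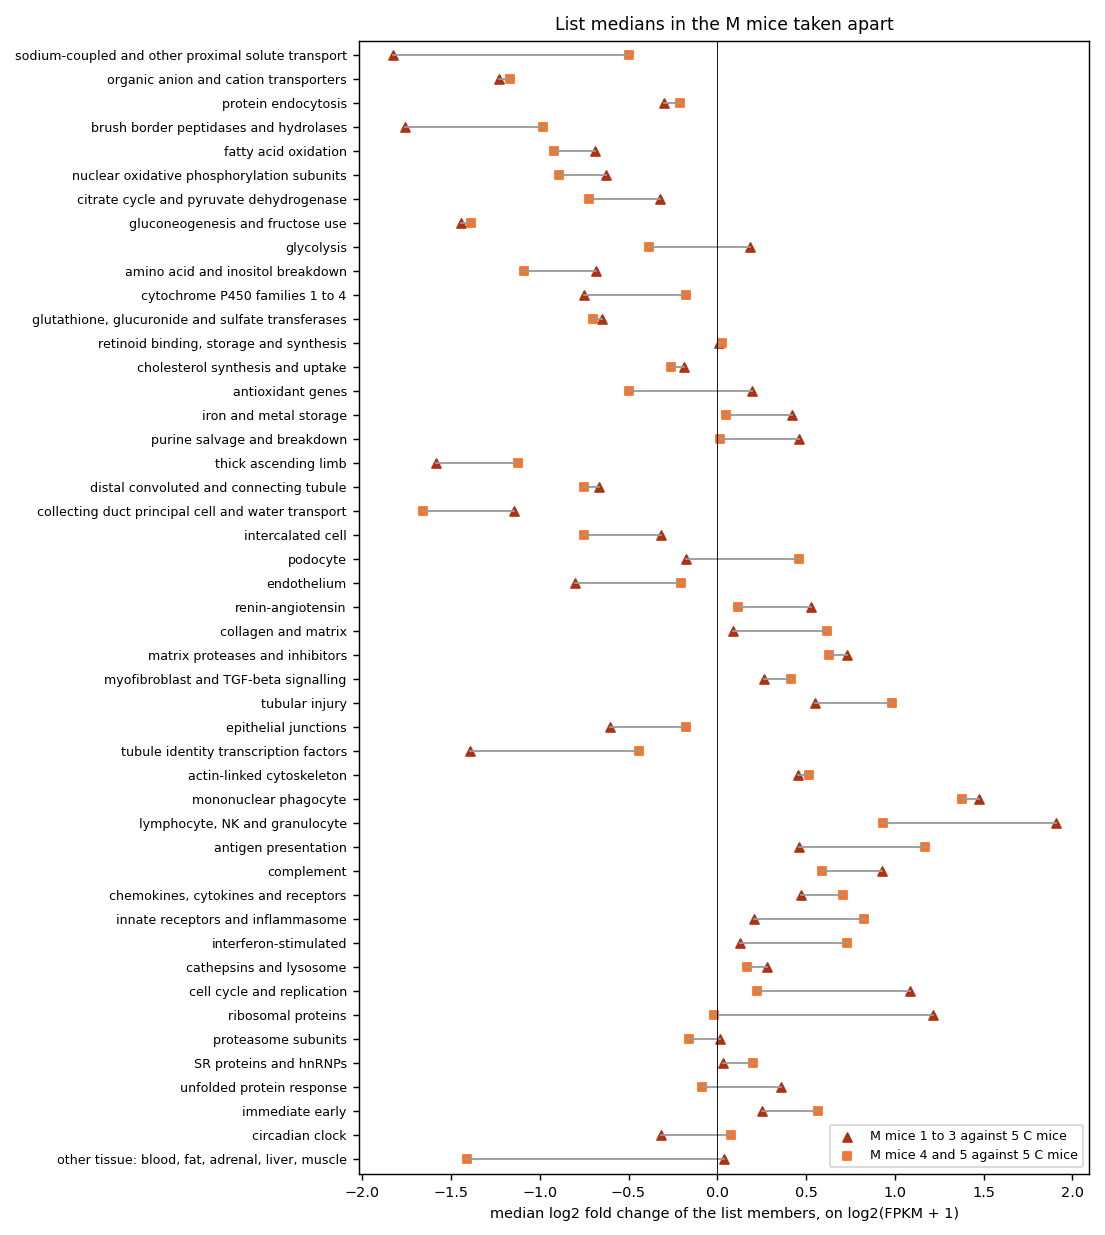
Median log2 fold change of each list's genes against the 5 C mice, for M mice 1 to 3 (triangles) and M mice 4 and 5 (squares). The mononuclear phagocyte medians lie close together at 1.47 and 1.38, and the ribosomal protein medians lie apart at 1.22 and −0.02.

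Housekeeping lists depended on which M mice were read. Ribosomal protein genes had 0 calls among 76, with 70 positive fold changes and a median of 0.70, which was 1.22 in M mice 1 to 3 and −0.02 in M mice 4 and 5. Rplp1, a stalk protein, was at 210, 168, 219, 294 and 208 FPKM with normal diet and at 625, 525, 555, 261 and 126 after adenine, and Rps15, a small subunit protein, at 223 ± 63.1 and 227 ± 68.3. The high Rplp1 values were those of M mice 1 to 3. Ribosomal protein genes took 6.60% ± 1.37 of the summed FPKM of the 7279 genes in the C group and 11.9% ± 3.77 after adenine (mean ± SD, n = 5 each), and processed copies across the genome make their reads uncertain. Cell cycle and replication genes had 0 calls among 23 and a median of 0.76, which was 1.08 in M mice 1 to 3 and 0.23 in M mice 4 and 5. Of the 23 fold changes, 20 were positive. At an unadjusted limma p under 0.05, 11 genes were higher and 1 lower, against 7.72% and 10.1% of all 7279 genes. All M values lay above all C values for 3 of the 23, against 2.50% of all 7279 genes. The 2 genes of highest level on the list were Tubb4b, a tubulin, at 17.2 ± 4.45 and 10.6 ± 2.59 FPKM, and Cdk4, a cyclin-dependent kinase, at 7.71 ± 1.80 and 8.20 ± 2.92. Tubb4b had the lowest log2 fold change of the list, −0.64.

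Further lists with medians near 0 were the proteasome subunits (0 calls among 37, median 0.04) and the SR proteins and hnRNPs (0 among 32, 0.06). Some lists given above also had medians near 0. The unfolded protein response (0 among 21, 0.21) and the circadian clock (0 among 10, −0.21) lay farther from 0. Psma4, a proteasome core subunit, was at 32.1 ± 16.4 FPKM with normal diet and 12.7 ± 2.07 after adenine without overlap (limma adjusted p = 0.125, n = 5 per group), and Psmc5, an ATPase of the cap, at 32.2 ± 4.98 and 23.99 ± 11.5. The RNA-binding protein Hnrnpa2b1 was at 20.2 ± 4.90 and 23.1 ± 4.84 FPKM and the splicing factor Srsf7 at 19.3 ± 5.38 and 21.3 ± 16.6. The chaperones Pdia3 and Calr were at 26.0 ± 6.45 and 39.7 ± 15.3 and at 31.2 ± 6.87 and 27.7 ± 7.75. Tef, a clock-controlled factor, was at 19.6 ± 15.3 and 4.42 ± 3.43 FPKM without overlap (limma adjusted p = 0.0818, n = 5 per group), and Dbp at 8.999 ± 8.42 and 1.87 ± 0.884. The 3 detected genes of other tissues had a median of −0.54, with the globin genes Hba-a1 at 58.0 ± 50.9 and 10.3 ± 2.07 FPKM and Hbb-bs at 11.6 ± 8.09 and 8.22 ± 6.21.

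The common level of all genes and the split of calls differed between scalings. The median log2 fold change of the 7279 genes was −0.02 as deposited, −0.77 when each library was brought to the same total (TPM), 0.16 with equal nuclear protein-coding totals and 0.22 after quantile normalization. Of the calls, 38.3% were higher as deposited, against 2.20% with TPM, 57.4% with equal nuclear totals, 47.8% after quantile normalization and 56.96% with limma voom on the recovered reads, which also changes the input and the model. Relative to the median of all 7279 genes, the list medians kept their sign under these scalings and under centring on that median, apart from the proteasome subunits and the SR proteins and hnRNPs, which were below it with TPM, and the antioxidant genes, which were above it with equal nuclear totals. The order of tubule and phagocyte lists around that level was therefore shared by the scalings tried.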

How the data were processed

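The authors trimmed reads with fastp, aligned them with HISAT2 2.0.5 to mm10 and counted them with featureCounts 1.5.0-p3, per the labels, and deposited 1 table in FPKM for 15 libraries. Of these, the 10 of the C and M groups were compared, and the AA libraries entered 1 alternative and the size factors. Replicates were labelled as separate mice. Identifiers were matched to GENCODE M21 on GRCm38 (54495 of 54532 found, 37 not).

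The reads behind each value were recovered from the steps between values and the joined exon lengths: 96.7% to 98.4% of low values per library fell within 0.02 of a whole step. The step sizes followed median-of-ratios size factors over 7206 genes and not the library totals, so the deposited FPKM are taken as already scaled between libraries. A step may be 1 read or 1 read pair, so no interval was computed from them.

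limma 3.58.1 (R 4.3.3; eBayes with trend) was run on log2(FPKM + 1) for the 21153 genes above 0 in at least 5 of the 10 libraries, without a block, and adjusted over all of them. The fits were tested on simulated data. Lists are described by counts and medians without a test. Named genes are the 12 largest rises and falls among called genes without overlap, up to 4 called genes per list (else the 2 of highest level) and 18 genes fixed by name; exceptions are marked, and some genes that the rule names are not reported here. The genes kept, the 47 lists and the alternatives were chosen with earlier results of these data known. The alternatives were other pseudocounts (0.1 and 0.01), filters and scalings, all 15 libraries in 1 fit, quality weights, voom, a replicate block, subsets of M mice and each library left out. Python 3.11.15, numpy 2.4.6, pandas 2.3.3 and matplotlib 3.10.9 were used.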

Additional observations from a re-analysis of the deposited data

Results flagged for a closer look

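Over the named genes, 236 groups of 5 values were checked on the log2(FPKM + 1) scale. Of these groups, 11 held a value whose gap to its nearest neighbour, as a share of the group range, was above the critical 0.71 of Dixon's test. The gaps below are on that scale. Chance gives about 1 in 20 groups, and these values are not independent, since the same mice recur. C mouse 4 was that value in 7 of them. It was the highest C mouse in C1qb at 21.2 FPKM (gap 0.750), Mpeg1 at 5.32 (0.839), Cd74 at 153 (0.731), Ccl5 at 2.46 (0.754) and Acta2 at 52.6 (0.762). It was the lowest C mouse in Bsnd at 2.88 FPKM (0.835) and Cdh16 at 26.9 (0.713). Without this mouse the C1qb log2 fold change was 3.27, the Mpeg1 log2 fold change 2.43, the Cd74 log2 fold change 2.07 and the Ccl5 log2 fold change 2.11. The Bsnd log2 fold change was then −2.45, the Cdh16 log2 fold change −2.95 and the Acta2 log2 fold change −0.10. C mouse 2 stood apart in Hbb-bs at 26.0 FPKM (0.807). In the M group, M mouse 2 was low in Acy3 at 2.29 FPKM (0.722), M mouse 4 high in Col1a1 at 126 (0.728) and M mouse 3 low in Tgfb1 at 1.49 (0.780).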

How the results depend on the processing

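The numbers of calls moved with the filter, the scaling and single mice. None of the called genes named by the rule changed sign under any alternative that was run. The numbers of genes called higher and lower, 41 and 66, became 20 and 29 with a pseudocount of 0.01, 7 and 7 when genes above 0 in any library were tested, and 65 and 109 with a mean FPKM of at least 1. They were 99 and 165 when only the 7279 genes were fitted, 15 and 667 with TPM, 66 and 49 with equal nuclear protein-coding totals, and 65 and 71 after quantile normalization. With all 15 libraries in the fit they were 108 and 191, with limma voom on the recovered reads 45 and 34, with M mice 1 to 3 only 502 and 775, and with M mice 4 and 5 only 3 and 0 (505 and 410 at an unadjusted p under 0.05). A pseudocount of 0.1 gave 36 and 57, centring 42 and 72, and quality weights 37 and 48. The median log2 fold change moved to −0.77 with TPM, 0.16 with equal nuclear totals and 0.22 after quantile normalization. With each library left out in turn, 0 to 103 were higher and 0 to 181 lower, and the median ran from −0.04 to −0.01. The cause of these changes was not tested.

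The replicate numbers did not pair the mice: same-numbered C and M mice deviated together with correlations of 0.146, −0.227, 0.184, −0.108 and 0.171. A fit with the replicate number as a block called 12 higher and 38 lower.

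M mice 1 to 3 had a median of 116 to 150 recovered reads per gene and the C mice 384 to 806, which limits the precision of genes of low level in these 3 mice.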

Other observations

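Besides the genes of the lists, 44 called genes lay outside them. Among those that fell were Mtor, the growth-regulating kinase, with 3.64, 13.5, 3.57, 5.44 and 9.53 FPKM for C mice 1 to 5 and 0.153, 0.625, 0.954, 1.45 and 1.75 for M mice 1 to 5, or a log2 fold change of −1.94 (SE 0.39, limma adjusted p = 0.0304). The M values lay below all C values. Among those that rose were Selenow, a small selenoprotein, from 22.5 ± 7.88 to 70.9 ± 31.6 FPKM, and Rab31, a vesicle GTPase, from 2.61 ± 1.08 to 10.8 ± 6.27 (SD, n = 5 each), and each of these 2 passed in 1 of the 10 fits with a library left out. The choice of these examples came after seeing their values.

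Within the ribosomal list, fold changes of single genes ran in opposite directions in M mice 1 to 3. Rpl7a had 2.19, 5.15, 25.1, 36.1 and 18.2 FPKM with normal diet and 1.16, 0.161, 0.0827, 13.3 and 20.2 after adenine, while Rps4x had 38.8, 22.3, 34.4, 63.8 and 42.3 with normal diet and 261, 258, 268, 64.5 and 32.9 after adenine. Rpl7a varied over 10-fold among the C mice as well, and neither gene was called.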
